A study of Mus musculus with 3 samples.

Results

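The coding promoter peaks that macrophages lost after LPS are regions of Ser5-phosphorylated Pol_II that were listed in untreated cells and not in LPS-treated cells. A region was counted as lost when it was a peak of the untreated list, overlapped no peak of the LPS list and lay within 1 kb of the transcription start site (TSS) of a protein-coding transcript. It also had to hold at least 15 untreated ChIP-Seq tags and an untreated level at least 2 times the LPS level after scaling to library size, with a count of 0 tags set to 0.5. The rule selected 1157 regions near 996 genes, out of 53467 untreated peaks on chromosomes 1 to 19 and X. Of these peaks, 14810 lay within 1 kb of a coding TSS and 13268 also held at least 15 untreated tags. The lost peaks were thus chosen by the Ser5 tags in the peaks themselves and by the LPS peak list, and these values are given below as a description.

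The libraries came from macrophages grown from the bone marrow of female Fvb mice (Fvb/Hsd in the study's methods) and used on the 7th day of differentiation. One Ser5 library was made from untreated cells, 1 from cells given 10 ng/ml LPS (lipopolysaccharide, a cell wall component of Gram-negative bacteria) for 2 h, and 1 library of input DNA from untreated cells measures chromatin that was not immunoprecipitated. The labels name no genetic modification, and the antibody in both Ser5 libraries was Abcam ab5131. With 1 library per condition no test was possible, so no difference has a replicate check. The 95% intervals of tag ratios cover counting error only. Those of shares and medians treat peaks or genes as separate draws, and no interval covers variation between replicates. A lower level can come from fewer cells that carry Pol_II at a site or from less Pol_II per cell, and these cannot be told apart in bulk chromatin.

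Phosphorylation of Ser5 in the C-terminal repeats of the largest Pol_II subunit is set by the kinase of TFIIH as transcription starts, so that Ser5-phosphorylated Pol_II piles up at active start sites and continues at a lower level into the transcribed gene. In macrophages LPS acts through the receptor Tlr4 and turns on inflammatory genes within minutes to hours. Many genes of the resting macrophage, among them genes for scavenger receptors, lipid handling and the cell cycle, are known to be turned down over the same period.

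Promoter sequences of 3 of the 10 lost peaks with the most untreated tags are shown because they span the range found among lost peaks, from poor to rich in CpG. Each runs 5′ to 3′ on the strand of the gene over the 250 bases that end just before the TSS nearest to the peak, in the mm9 assembly (NCBIM37), and holds no annotated exon. Capitals mark matches to any of the 13 motifs searched. The windows are Cd300lb at chr11:114795701-114795950 on the minus strand, Dnmt3a at chr12:3860771-3861020 on the plus strand and Mtss1 at chr15:58913582-58913831 on the minus strand.
Cd300lb: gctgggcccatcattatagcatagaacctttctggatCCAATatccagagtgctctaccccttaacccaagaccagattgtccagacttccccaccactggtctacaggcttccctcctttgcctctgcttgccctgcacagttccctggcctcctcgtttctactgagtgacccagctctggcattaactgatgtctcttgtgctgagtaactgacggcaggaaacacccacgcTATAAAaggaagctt
Dnmt3a: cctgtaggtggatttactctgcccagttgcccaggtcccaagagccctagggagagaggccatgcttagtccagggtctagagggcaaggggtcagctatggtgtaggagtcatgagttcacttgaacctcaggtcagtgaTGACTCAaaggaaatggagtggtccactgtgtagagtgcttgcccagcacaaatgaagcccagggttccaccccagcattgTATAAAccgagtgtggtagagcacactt
Mtss1: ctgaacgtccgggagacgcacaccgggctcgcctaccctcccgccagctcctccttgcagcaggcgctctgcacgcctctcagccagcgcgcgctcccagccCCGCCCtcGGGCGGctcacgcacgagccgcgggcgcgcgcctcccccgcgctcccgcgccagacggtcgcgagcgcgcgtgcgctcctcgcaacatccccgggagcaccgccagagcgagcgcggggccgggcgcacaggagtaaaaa
The Dnmt3a window held 1 CpG site, an AP-1 match that starts 109 bases before the TSS and a TATA box that starts 28 bases before it. The Cd300lb window held 3 CpG sites, a CCAAT box that starts 213 bases before the TSS and a TATA box that starts 15 bases before it. The Mtss1 window held 40 CpG sites and GC boxes that start 148 and 140 bases before the TSS.

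Across the 1157 lost peaks the untreated library held a median of 26 tags, with a range of 15 to 700. The LPS library held a median of 6 tags with a range of 0 to 49, and the input held a median of 4 tags with a range of 0 to 37. Scaled to 1000000 tags of each library on these chromosomes (TPM), the medians were 3.41 in untreated cells, 0.960 after LPS and 0.531 in input. The lost peaks were thus mostly small ones, whereas the 11761 promoter peaks that overlap an LPS peak had medians of 18.4 TPM untreated and 14.6 TPM after LPS.

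The median LPS to untreated ratio of a lost peak was 0.271 (0.254 to 0.283), and 0.789 over all 13268 peaks. By the rule 8.72% of those peaks were lost (Wilson interval 8.25% to 9.21%), and 19.6% were at least 2 times lower after LPS whether or not an LPS peak overlapped them. A further 350 peaks overlapped no LPS peak but were less than 2 times lower. Summed over the lost peaks, the untreated library held 41556 tags, the LPS library 8177 and the input 5139. The untreated level was 8.00 times (7.77 to 8.23) the input level and the LPS level was 1.92 times (1.85 to 1.99) the input level, so a part of the Ser5 signal remained above input over the group as a whole. In 220 lost peaks the LPS level was at or below input. Scaling the libraries to tags outside the peaks put the LPS to input ratio at 3.75 and the number at or below input at 84, so each comparison of LPS with input below depends on the scaling.

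With a count of 0 tags set to 0.5, as in the rule, the difference was 4-fold or more in 534 lost peaks and 10-fold or more in 142. Both counts include the 30 lost peaks with 0 LPS tags. With a floor of 3 tags per library these 30 peaks ranged from at least 4.10-fold lower at Gas6 to at least 191-fold lower at Crebzf. Not all of them reach 10-fold with that floor. The counting interval of the ratio lay below 1 for 999 lost peaks and below 0.5 for 338, so for most of them the tags do not place the ratio below the 2-fold limit of the rule.

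**Figure D1:**
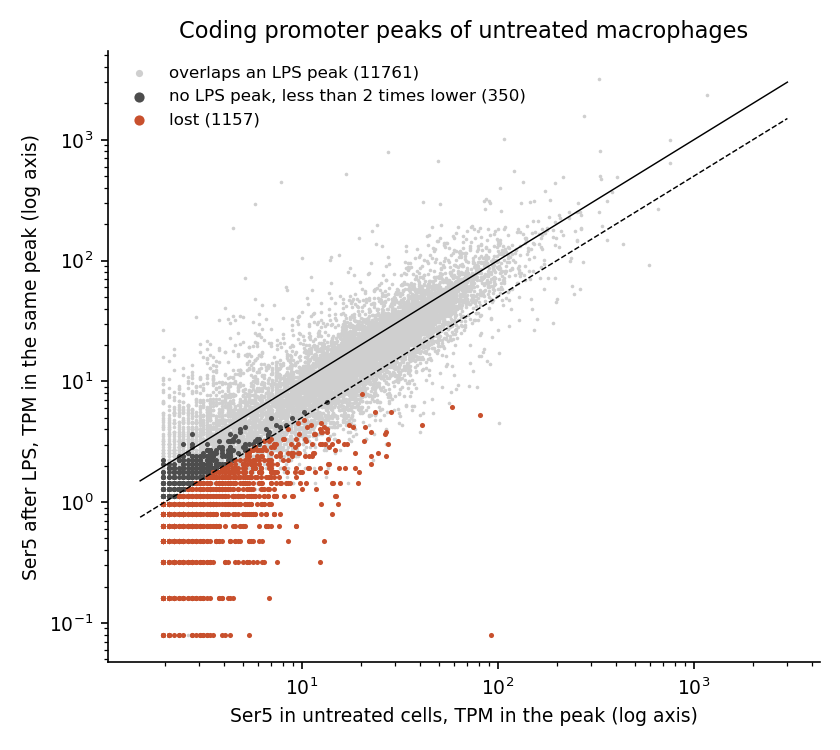
Each point is 1 of 13268 untreated coding promoter peaks, with the Ser5 level in untreated cells on the x axis and after LPS on the y axis, both in TPM on log axes, with 0 LPS tags drawn at 0.5 tags. The solid line marks equal levels and the dashed line a ratio of 0.5. The 1157 lost peaks (red) lie at the low end of the untreated range, and the point far to the right at 0 LPS tags is the Crebzf region.

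The 10 lost peaks with the most untreated tags lay near Crebzf, Nt5dc2, Cd300lb, Laptm5, Sgsh, Dnmt3a, Hmha1, Gpr146, Mtss1 and Mdk. The first of them is not a peak of the usual kind. At Crebzf, which encodes a basic leucine zipper protein, the region chr7:97590451-97590563 held 700 untreated tags, 0 LPS tags and 1 input tag. Its 700 tags lay at only 7 distinct positions and strands, with 672 tags at 1 base, and its score of 91 was low for that number of tags. With 1 tag kept per position and strand it had fewer than 15 tags and was no longer selected. In the other lost peaks distinct tags made up at least 58.6% of the untreated tags, with a median of 86.8%.

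Nt5dc2, a gene for a protein with a 5′-nucleotidase domain, had the widest lost peak, chr14:31946884-31951474, which covers a TSS. It held 618 untreated tags, 33 LPS tags and 23 input tags, or 81.1, 5.28 and 3.05 TPM. The LPS level was nearer to the input level than to the untreated level, with an LPS to untreated ratio of 0.0651 (0.0444 to 0.0924).

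The Cd300lb peak, chr11:114793781-114796054, held 445 untreated, 38 LPS and 37 input tags. Cd300lb encodes an activating receptor of myeloid cells, and the ratio at its TSS was 0.104 (0.0727 to 0.145). The Laptm5 peak, chr4:130468966-130470536, held 313 untreated, 27 LPS and 16 input tags. Laptm5 is a lysosomal membrane protein of blood cells, and its ratio of 0.105 (0.0682 to 0.156) was within the interval of that of Cd300lb.

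The peak shared by the TSSs of Sgsh and Slc26a11, chr11:119215881-119217123, held 218 untreated, 35 LPS and 17 input tags. Sgsh is the lysosomal enzyme that removes sulfate from heparan sulfate, and the ratio was 0.196 (0.133 to 0.281). The Dnmt3a peak, chr12:3860618-3862590, held 211 untreated, 19 LPS and 22 input tags. Dnmt3a is a de novo DNA methyltransferase, and the ratio was 0.110. After LPS the region was at 1.04 times input, or 2.13 times with scaling to tags outside peaks. Dnmt3a had 6 lost peaks, the most of any gene.

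The Hmha1 peak, chr10:79481319-79482993, held 205 untreated, 15 LPS and 12 input tags, with a ratio of 0.0892 (0.049 to 0.151). The peak next to Gpr146, a G-protein-coupled receptor gene, and D830046C22Rik, chr5:139853145-139855539, held 204 untreated, 24 LPS and 32 input tags. The Mtss1 peak, chr15:58911891-58914001, held 203 untreated, 23 LPS and 18 input tags. The Mdk peak, chr2:91770968-91772773, held 187 untreated, 16 LPS and 2 input tags. Mtss1 encodes a membrane- and actin-binding protein and Mdk encodes midkine, a secreted heparin-binding factor. The ratios of these 3 peaks were 0.143, 0.138 and 0.104, and their intervals overlap.

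**Figure D2:**
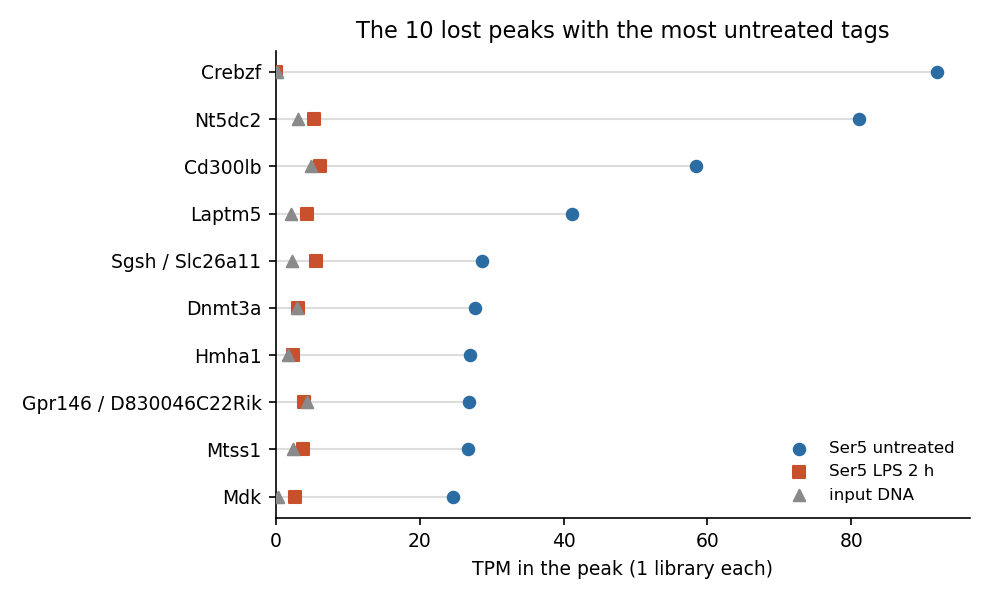
Levels in TPM (x axis) of the 10 lost peaks with the most untreated tags, 1 line per peak, in the untreated Ser5 library (circles), the LPS Ser5 library (squares) and input DNA (triangles), 1 library each with no error bar. In each line the untreated level stands apart, at 24.6 TPM or more, and the LPS level is at most 6.08 TPM, at Cd300lb. The LPS level is farther from input at Mdk and Sgsh, with 2.56 and 0.265 TPM and 5.6 and 2.26 TPM, than at Dnmt3a.

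Among lost peaks with at least 30 untreated tags, the lowest LPS to untreated ratios after Crebzf were at Snx24, Nudt17, Necab2 and G430095P16Rik, all with 0 LPS tags. They held 41, 33, 31 and 30 untreated tags. With a floor of 3 LPS tags per library these 4 peaks were at least 11.2-fold, 9.03-fold, 8.48-fold and 8.21-fold lower. Snx24 encodes a sorting nexin and Nudt17 a Nudix hydrolase. The next lowest was Galnt12, a gene for an enzyme of O-linked glycosylation, with 52 untreated tags and 1 LPS tag and a ratio of 0.0234 (0.000582 to 0.136).

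Tgfbi, an extracellular matrix protein induced by TGF-beta, had 94 untreated, 2 LPS and 4 input tags over its TSS at chr13:56710760-56711293. Its ratio was 0.0259 (0.00309 to 0.0963). Pla2g12a, a secreted phospholipase gene, held 34 untreated tags and 1 LPS tag, and 2900026A02Rik held 33 untreated tags and 1 LPS tag. Angptl4, a secreted inhibitor of lipoprotein lipase, held 99 untreated, 3 LPS and 5 input tags, with a ratio of 0.0369 (0.00749 to 0.111). In the Tgfbi and Angptl4 peaks the LPS library thus held fewer tags than the input, with LPS to input ratios of 0.603 and 0.723. With scaling to tags outside peaks these ratios were 1.23 (0.112 to 8.60) and 1.48 (0.230 to 7.60), so so few tags do not place LPS below or above input.

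At the edge of the rule, the lost peaks just inside the 2-fold limit were at Mapk7 and Rabl5, with 44 untreated and 18 LPS tags each, and at Ankrd44, with 22 and 9. The peaks just outside it were at Eno1 with 102 and 42 tags, Rsad1 with 34 and 14, and Tstd1 with 17 and 7. The ratios were 0.499 inside and 0.502 outside. At the limit of 15 untreated tags, 93 peaks were kept with 15 tags and 61 peaks that met the other criteria had 14. Gas6, Zfp114 and Rreb1 held 15 untreated and 0 LPS tags, whereas Wdr5, Ltb4r2 and Tial1 held 14 untreated and 0 LPS tags and were left out.

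The lost peaks sat beside a TSS more often than the other promoter peaks did. A TSS lay inside 469 of 1157 lost peaks (40.5%, 37.7% to 43.4%), while 296 lay upstream and 392 downstream of the nearest TSS. Among promoter peaks in both lists, 81.2% covered a TSS (80.5% to 81.9%). By midpoint, 524 lost peaks were in an intron, 221 in a UTR exon, 118 in a coding exon and 294 outside coding genes. The nearest TSS was more than 1 kb downstream of the first coding TSS of the gene for 25.8% of lost peaks (23.3% to 28.4%) and for 11.8% of peaks in both lists (11.2% to 12.4%).

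Position and peak size went together. Of peaks with 15 to 29 untreated tags 30.7% were lost, against 19% with 30 to 59 tags, 3.52% with 60 to under 120 tags, 0.588% with 120 to under 240 tags and 0.134% with 240 or more. Within 15 to 29 tags, 30.2% of peaks that cover a TSS (26.8% to 33.8%) and 30.9% of peaks beside a TSS (28.6% to 33.2%) were lost, and these intervals overlap. Among peaks with 60 or more tags the shares were 0.964% (0.777% to 1.20%) and 4.01% (2.81% to 5.70%). The LPS library also had fewer tags, 6249819 against 7616771, and the part of this difference in which small regions were listed as peaks was not tested.

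A lost peak did not always mean a bare promoter. The LPS list held a peak within 1 kb of 542 lost peaks (46.8%, 44% to 49.7%), and 564 of the 996 genes kept another coding promoter peak that was in both lists. For 528 of the 996 genes at least 1 lost peak stood at a TSS with no LPS peak within 1 kb of it. The 615 lost peaks with no LPS peak within 1 kb had a median of 29 untreated tags and a median ratio of 0.244, and 61.6% of them covered a TSS (57.7% to 65.4%). The 542 with one had a median of 23 tags and a median ratio of 0.291, and 16.6% covered a TSS (13.7% to 20.0%).

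Ccnd1 (cyclin D1, which drives entry into the cell cycle) shows the first situation. Its peak 240 bp upstream of the TSS held 59 untreated and 5 LPS tags, and the LPS list still had a peak within 1 kb of the TSS. The tags within 1 kb of the TSS were nonetheless 285 in untreated cells and 24 after LPS. At Rpl35a, a ribosomal protein gene, a lost peak of 27 untreated and 7 LPS tags lay 919 bp downstream of a TSS whose window held 262 untreated and 225 LPS tags. The count over the whole TSS window therefore differed among lost peaks. Its median ratio was 0.406 (0.397 to 0.429), against 0.853 for peaks in both lists. The window count was at least 2 times lower for 710 lost peaks (61.4%), beside 9.89% of peaks in both lists. It was above 1 for 31 lost peaks and for 3801 of the 11761 peaks in both lists. The window can hold tags of the lost peak itself, which the rule selected.

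Around the 469 TSSs that lost peaks cover, the untreated level was highest next to the TSS and the LPS level was 1.20 to 1.71 times input over the zones (2.45 to 3.50 times with both libraries scaled to tags outside peaks, a scaling applied here after the values were seen). In the 500 bp downstream of the TSS the untreated library held 11393 tags, the LPS library 2515 and the input 1774. The mean density there was 6.38, 1.72 and 1.00 TPM per kb, and the LPS to untreated ratio was 0.269 (0.258 to 0.281). From 1000 to 2000 bp downstream the densities were 2.37, 1.19 and 0.819, with a ratio of 0.500 (0.480 to 0.520). The TSSs were chosen by the tags in the peaks over them, so the low ratio next to the TSS is what the rule selected. At the 9553 TSSs of peaks in both lists the ratio was 0.944 in the first 500 bp and 1.26 from 1000 to 2000 bp.

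**Figure D3:**
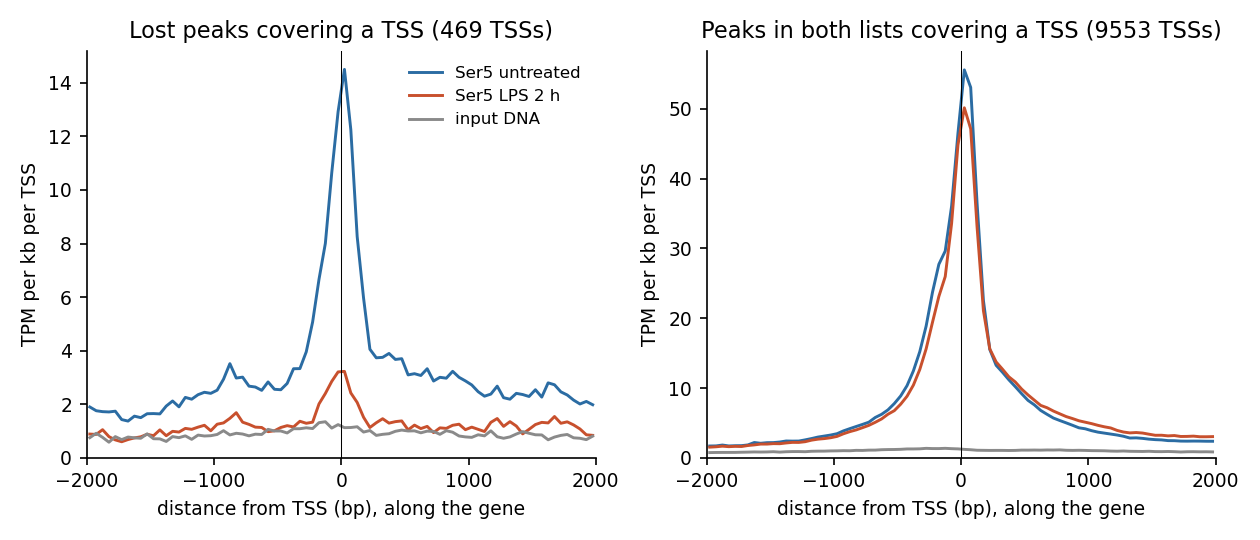
Mean Ser5 density in 50 bp bins (y axis, TPM per kb per TSS) against distance from the TSS along the gene (x axis, bp), for 469 TSSs covered by lost peaks (left) and 9553 covered by peaks in both lists (right), with no error shown and a separate y scale in each panel. On the left the LPS line runs near the input line away from the TSS and has a low maximum at the TSS. On the right the LPS line lies somewhat below the untreated line upstream of and at the TSS, and above it from 500 bp downstream.

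Ser5 tags inside the genes were counted outside 1000 bp on either side of each coding TSS, from the same libraries. The peaks themselves were not left out. A lost peak that reaches beyond 1000 bp, such as that of Lss (899 bp downstream and 608 bp long), can therefore add tags that the rule also used. How far such shared tags lower the interior ratios was not tested. Of the 996 genes, 917 had at least 10 interior tags over both Ser5 libraries and at least 1000 bp of interior. Their median LPS to untreated ratio was 0.581 (0.554 to 0.609), against 0.852 (0.843 to 0.860) over the 9386 genes with a tested promoter peak and 0.880 (0.870 to 0.891) over the 8469 of these with no lost peak. The interior was at least 2 times lower in 355 of 917 genes (38.7%, 35.6% to 41.9%), beside 14.2% of all 9386, and at least 2 times higher in 11 (1.20%, 0.671% to 2.14%), beside 6.61% of all. It was below 1 in 816 of 917. The median was 0.574 for the 485 genes whose TSS window held no LPS peak at a lost peak.

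**Figure D4:**
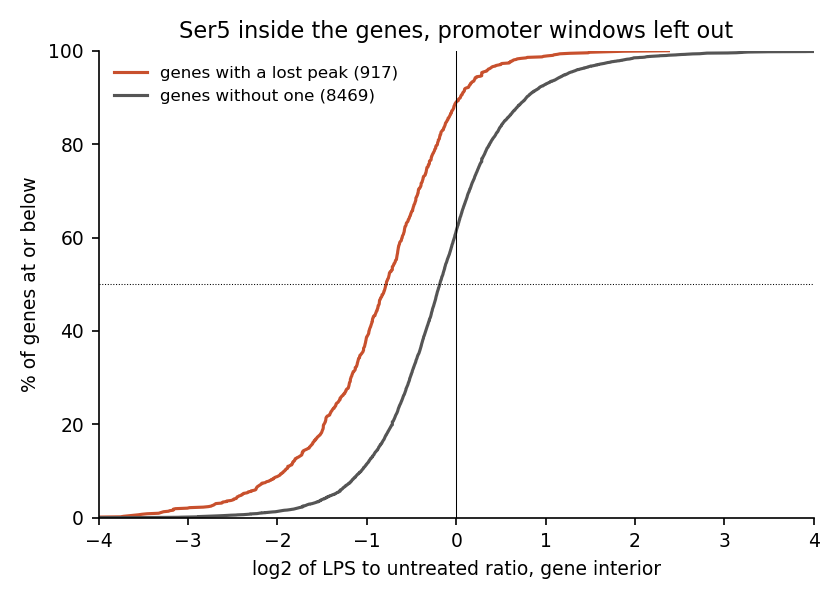
Cumulative share of genes (y axis, %) against the log2 LPS to untreated ratio of tags in the gene interior (x axis), for 917 genes with a lost promoter peak (red) and 8469 tested genes without one (grey), 1 library per condition. The red line lies to the left of the grey one, with medians of 0.581 and 0.880 on the linear scale. Parts of lost peaks beyond 1000 bp of a TSS are included in the interiors.

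The lowest interior ratios were at Gas6, Sgsh, Nt5dc2, Treml1 and Tgfbi. Gas6, the ligand of the receptors Axl and Mertk, had 545 untreated and 24 LPS interior tags, a ratio of 0.0537. Sgsh had 181 and 11 interior tags (0.0741), Nt5dc2 418 and 26 (0.0758), Treml1 139 and 9 (0.0789) and Tgfbi 700 and 47 (0.0818). In these genes the promoter and the interior were both more than 4 times lower in the LPS library, where the promoter level was selected by the rule. The 2 values are not separate at each gene. At Nt5dc2 the lost peak held 618 untreated tags and the window within 1 kb of its TSS 237, so much of the peak lies farther out. The Gas6 peak, 465 bp long, starts 831 bp downstream of its TSS.

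The highest interior ratios were at Plek, Gbgt1, Cel, F10 and Gpx3. Plek, which encodes pleckstrin, a substrate of protein kinase C, had 839 untreated and 3569 LPS interior tags (5.18), although a peak that covers 1 of its TSSs held 21 untreated and 2 LPS tags. The TSS of Cnrip1 lies within 1 kb of the same peak. Gpx3, a secreted glutathione peroxidase, had 331 and 655 interior tags (2.41) while its lost peak held 43 and 17. The other 3 genes had no more than 35 untreated interior tags each, namely 10 for Gbgt1, 10 for Cel and 35 for F10. Loss at a promoter and Ser5 in the gene thus did not always go the same way.

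The sequence of the lost peaks was poorer in CpG. The median ratio of observed to expected CpG was 0.352 (0.334 to 0.384) in lost peaks and 0.727 (0.721 to 0.731) in peaks in both lists, and the median GC content was 54.3% (54.0% to 54.8%) and 59.8% (59.6% to 59.9%). Of the fifth of tested peaks with the lowest CpG ratio, below 0.39, 23.6% were lost (22.0% to 25.2%), and of the fifth with the highest, 3.39% (2.77% to 4.15%). By position, lost peaks had a median GC of 58.4% where they cover a TSS and 52.8% beside it, and peaks in both lists 60.7% and 53.8%. The median CpG ratio was lower in lost peaks in both positions, at 0.52 and 0.75 for peaks that cover a TSS and 0.29 and 0.44 for peaks beside one. Among peaks with 15 to 29 untreated tags the CpG ratio was 0.35 in lost peaks and 0.46 in peaks in both lists. The median GC content at this size was 53.9% and 54.7%, so the GC difference was small among peaks of like size.

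The motifs were searched on both strands in 300 bases centred on each peak, and as a reference in 300 bases centred on the first coding TSS of each of 22342 coding genes. The GC box (GGGCGG), which Sp-family factors bind, was in 29.6% of lost peaks (27% to 32.3%), 58.4% of peaks in both lists (57.5% to 59.3%) and 46.2% of all TSS windows. The ETS site (CCGGAAGT) was in 1.30% (0.787% to 2.13%), 6.21% and 4.85%, and the YY1 site (AAGATGGCG) in 0.346% (0.135% to 0.886%), 3.01% and 2.29%. These 3 motifs all hold a CpG. Among peaks with 15 to 59 untreated tags the GC box was in 29.4% of lost peaks (26.7% to 32.2%) and 42.0% of peaks in both lists (40.1% to 43.8%). For the ETS site the shares at this size were 1.43% (0.870% to 2.35%) and 2.32% (1.82% to 2.96%), and for the YY1 site 0.382% (0.149% to 0.978%) and 1.05% (0.734% to 1.51%), so that these intervals overlap. The lost windows had the lower GC content at this size too, and the median GC content of these windows was 54.7% and 57.0%.

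A PU.1 site (GAGGAAGT), the sequence of the macrophage lineage factor PU.1, was in 6.48% of lost peaks (5.20% to 8.05%), 2.99% of peaks in both lists (2.70% to 3.32%) and 2.99% of TSS windows. Among peaks with 15 to 59 untreated tags the shares were 6.78% of lost peaks (5.41% to 8.47%) and 4.07% of peaks in both lists (3.39% to 4.87%). The AP-1 site (TGANTCA) was in 8.38% of lost peaks (6.92% to 10.1%) and 4.54% of peaks in both lists (4.18% to 4.93%). At 15 to 59 tags these shares were 8.4% (6.87% to 10.2%) and 6.54% (5.67% to 7.52%), and the intervals overlap.

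The TATA box (TATAAA) was in 5.88% of lost peaks, 3.97% of peaks in both lists and 10.7% of TSS windows, but in 6.30% and 5.96% at 15 to 59 tags. The interferon response core (GAAANNGAA) was in 6.57% of lost peaks and 6.34% of peaks in both lists, but in 6.59% (5.24% to 8.26%) and 9.23% (8.20% to 10.4%) at 15 to 59 tags. These differences thus depended on which peaks in both lists were taken. The NRF1 site (GCGCATGCG) was in 0.778% and 2.28%, and in 0.764% and 0.835% at 15 to 59 tags. The CRE (TGACGTCA) was in 0.864% and 2.09%, and in 0.955% and 1.13%.

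The CCAAT box (CCAAT) was in 30.2% of lost peaks and 29.6% of peaks in both lists, and in 30.0% and 30.2% at 15 to 59 tags. The E-box (CACGTG) was in 7.52% and 8.4%, and in 7.64% and 7.77% at that size. The KLF site (CCACACCC) was in 4.84% and 3.6%, and in 5.06% and 3.81%, and the MEF2 core (TATTTATA) in 1.04% and 0.400%, and in 1.15% and 0.581%. A match states only that the letters are present.

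Gene groups were read against the 10.1% of all 9888 tested genes that had a lost peak (Wilson interval 9.50% to 10.7%). No gene of the list of inflammatory genes that LPS is known to induce had a lost peak, 0 of 28 tested. Such genes were listed because LPS raises them, and the median ratio of their 44 tested peaks was 3.49. The result for this list is thus a description and says little about the lost peaks. A count of 0 allows a share of up to 10.7% (3 of 28), and the upper Wilson limit, which compares with the intervals of the other lists, is 12.1%. The shares with a lost peak were highest among semaphorins, plexins and neuropilins (6 of 14, 42.9%, 21.4% to 67.4%) and regulators of G-protein signalling (3 of 11, 27.3%, 9.75% to 56.6%). They were lowest for the respiratory chain (1 of 84, Atp5g2, 1.19%, 0.210% to 6.44%) and mitochondrial ribosomal proteins (1 of 59, Mrpl24, 1.69%, 0.300% to 9%).

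**Figure D5:**
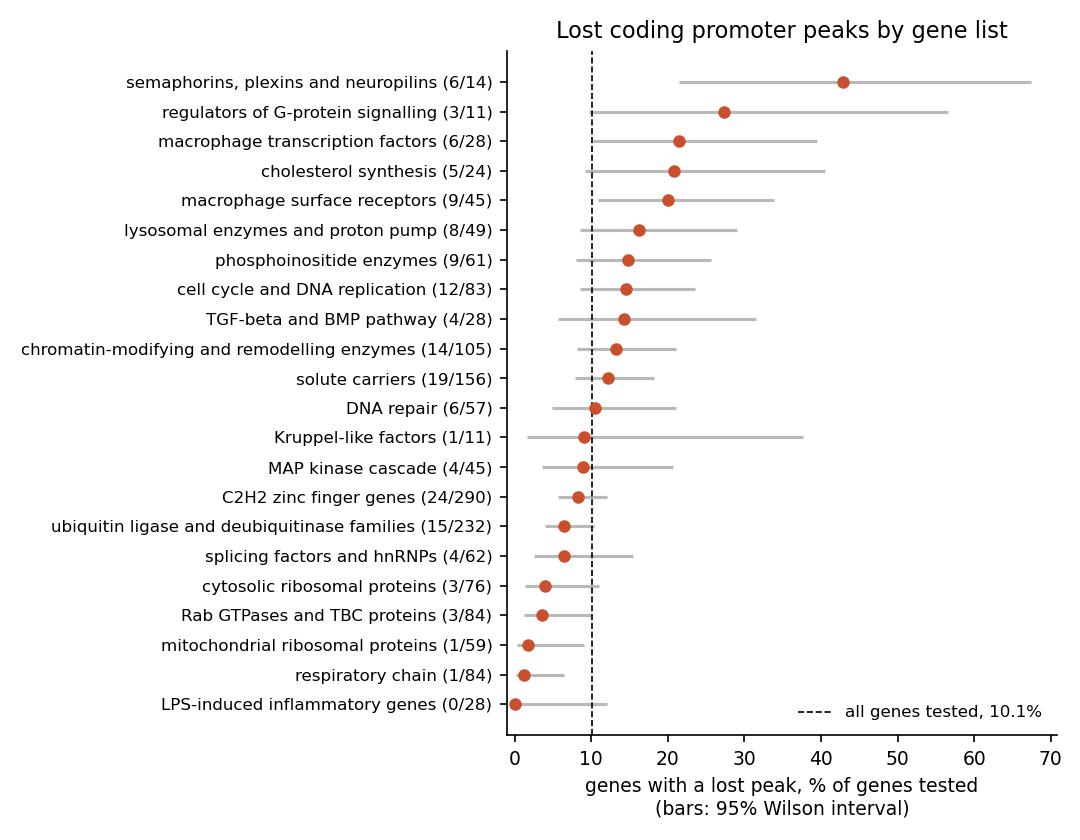
Share of tested genes with a lost promoter peak (x axis, %) in each of 22 gene lists (y axis, with the number lost and tested in brackets). Bars are 95% Wilson intervals, which treat genes as separate draws, and the dashed line is the 10.1% of all 9888 tested genes. Most intervals include the dashed line. Those of the semaphorin and plexin, macrophage receptor and macrophage transcription factor lists lie above it. By peak, 8 of 32, 14 of 75 and 8 of 61 tested peaks of these lists were lost, beside 8.72% of all, since a gene with more tested peaks can be counted more easily. Intervals of the respiratory chain, mitochondrial ribosomal protein and Rab lists lie below the line. The limits nearest to it, 10.2% for transcription factors and 9.98% for Rab genes, lie within the interval of all genes, 9.50% to 10.7%.

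Of 45 tested genes for macrophage surface receptors, 9 had a lost peak (20.0%, 10.9% to 33.8%), and the median ratio of all their 75 tested peaks was 0.609. Lrp1, a large endocytic receptor, held 126 untreated, 12 LPS and 18 input tags at chr10:127020185-127022532, which covers an annotated TSS. Its interior held 4481 untreated and 313 LPS tags (0.0851). Stab1, a scavenger receptor, held 104, 13 and 5 tags at chr14:31955662-31957030, with 2601 and 396 in the interior (0.186). Mrc1, the mannose receptor, held 75, 9 and 10 tags at chr2:14150634-14151242, with 605 and 81 in the interior (0.163). The Lrp1 peak had its midpoint in an intron, upstream of the TSS it covers, and the Stab1 peak in a coding exon. Farther upstream Stab1 had a lost peak in a run at chr14:31982547-32004163. Neither peak is therefore taken as the first promoter of its gene. The LPS level was 0.804 times input at the Lrp1 peak and 1.08 times at the Mrc1 peak, or 1.64 and 2.22 times with scaling to tags outside peaks. The other 6 genes were Cx3cr1, Tlr13, Tlr8, Il4ra, P2ry6 and Itgam, and over the 9 lost genes the median interior ratio was 0.212. Over all 44 genes of the list with a counted interior it was 0.695, with 15 at least 2 times lower and 7 at least 2 times higher.

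Of 28 tested macrophage transcription factor genes, 6 had a lost peak (21.4%, 10.2% to 39.5%), and the median ratio of all their 61 tested peaks was 0.828. Over the 27 genes with a counted interior the median interior ratio was 0.794, beside 0.852 over all genes. Of these interiors 8 were at least 2 times lower and 3 at least 2 times higher. Irf8, which directs the differentiation of macrophages and dendritic cells, held 154 untreated, 49 LPS and 21 input tags at chr8:123262202-123264565, a ratio of 0.388 (0.275 to 0.538). Its LPS count was the highest of any lost peak. The midpoint of this peak lay in an intron, upstream of the TSS it covers, and the LPS list held a peak within 1 kb. The peak is therefore not taken as the first promoter of Irf8. Batf3, a factor of dendritic cells, held 25, 9 and 2 tags, and the upper bound of its ratio was 0.972. Rara, Rxra and Runx1 also had a lost peak.

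Lysosomal genes had a lost peak in 8 of 49 (16.3%, 8.51% to 29%) and genes of cholesterol synthesis in 5 of 24 (20.8%, 9.24% to 40.5%). Both intervals include 10.1%. The median interior ratio over all tested genes was 0.547 in the lysosomal list and 0.509 in the cholesterol list, beside 0.852 over all genes. After Laptm5, the lysosomal genes with the most untreated tags in a lost peak were Laptm4b (71 untreated, 10 LPS and 7 input tags) and Hexa, a subunit of beta-hexosaminidase (71, 12 and 9). For cholesterol synthesis they were Lss, lanosterol synthase (33, 3 and 5), Sqle, squalene epoxidase (22, 5 and 2), and Sc4mol, a sterol oxidase with 2 lost peaks (22, 3 and 2 in the one that lies downstream of the TSS). The LPS list held a peak within 1 kb of the TSS of Hexa, Sqle and Sc4mol and none within 1 kb of that of Lss.

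In the semaphorin and plexin list the lost genes with the most untreated tags were Plxnb2 (100, 19 and 6 tags), Sema4a (29, 4 and 8) and Sema4b (26, 7 and 2), and the others were Sema4c, Sema4d and Plxna1. Among regulators of G-protein signalling Rgs3 held 97, 19 and 12 tags, Rgs18 27, 8 and 1, and Rgs7bp 20, 7 and 4. The upper bound of the Rgs7bp ratio was 1.05. The interior ratios of these genes were 1.05, 0.401 and 0.776, and the interval of the list, 9.75% to 56.6%, includes 10.1%.

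Cell cycle and replication genes had a lost peak in 12 of 83 (14.5%, 8.47% to 23.6%), and the median ratio of all 116 tested peaks of the list was 0.588. Pola1, the catalytic subunit of DNA polymerase alpha, held 80 untreated, 9 LPS and 8 input tags over its TSS. Cdt1, which licenses replication origins, held 53, 12 and 7 tags downstream of a TSS with an LPS peak within 1 kb. For DNA repair genes the share was 6 of 57 (10.5%). Ogg1, the glycosylase for 8-oxoguanine, stood out with 149 untreated, 11 LPS and 21 input tags at chr6:113283562-113285409, a ratio of 0.0900 (0.044 to 0.166). Xrcc5 (29, 9 and 8) and Brca2 (24, 5 and 4) followed.

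Chromatin enzymes had a lost peak in 14 of 105 genes (13.3%, 8.11% to 21.1%), and after Dnmt3a the largest were at Kdm2b, a histone demethylase (82 untreated, 12 LPS and 1 input tags), and Hdac8, a histone deacetylase (38, 13 and 5). Solute carriers had one in 19 of 156 (12.2%), with Slc46a1, a folate transporter, at 105, 18 and 7 tags, Slc45a4 at 95, 6 and 13, and Slc16a11 at 62, 7 and 3. Phosphoinositide enzymes had one in 9 of 61 (14.8%), led by Inpp5k, Plcb2 and Plcg1, and the TGF-beta and BMP pathway in 4 of 28 (14.3%), led by Ski, Tgfbrap1 and Ltbp2. These 4 intervals include 10.1%.

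The remaining lists were at or below the background. They were MAP kinases (4 of 45, 8.89%), Kruppel-like factors (1 of 11, Klf11, 9.09%), C2H2 zinc finger genes (24 of 290, 8.28%), ubiquitin enzymes (15 of 232, 6.47%), splicing factors (4 of 62, 6.45%), cytosolic ribosomal proteins (3 of 76, 3.95%) and Rab and TBC genes (3 of 84, 3.57%, 1.22% to 9.98%). The lost peaks at the ribosomal genes Rpl14 and Rpl35a lay beside TSSs with an LPS peak within 1 kb. Among the Rab genes Rab3il1, an exchange factor for Rab proteins, had the lowest ratio, with 50 untreated, 4 LPS and 8 input tags in the lost peak and 1028 and 94 in the interior (0.111).

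Lost peaks also came in runs along a chromosome, a pattern chosen for description after its values were seen. Of the 1157 lost peaks 349 (30.2%, 27.6% to 32.9%) lay within 20000 bp of another lost peak, beside 1304 of the 12111 tested peaks that were not lost (10.8%, 10.2% to 11.3%). Further, 127 genes had 2 or more, and there were 12 runs of at least 4. The run over D830046C22Rik, Gpr146 and C130050O18Rik, chr5:139853145-139884855, had 8 lost peaks with 916 untreated, 82 LPS and 110 input tags in all. Over its whole 31.7 kb the untreated library held 1964 tags in and between 20 peaks and the LPS library 206 tags and 2 peaks, a ratio of 0.128 (0.110 to 0.148). The input held 275 tags there, so the LPS level was 0.903 times input, or 1.85 times with scaling to tags outside peaks.

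The run over Mdk, Gm9821 and Dgkz, chr2:91770036-91803419, also had 8 lost peaks. It held 1517 untreated, 172 LPS and 224 input tags over 33.4 kb, with 31 untreated peaks and 1 LPS peak. Dgkz is a diacylglycerol kinase. The apolipoprotein run over Apoc2, Apoc1, Apoe and Tomm40, chr7:20261218-20288292, had 6 lost peaks and held 553 untreated, 161 LPS and 193 input tags, a ratio of 0.355 (0.296 to 0.424). Apoe is the apolipoprotein that macrophages secrete for cholesterol efflux. The runs at Elmo2 and Zmynd8 had 4 and 5 lost peaks and no LPS peak inside them. Not all runs were low throughout. The run over Lrdd, Efcab4a and Cd151 had 4 lost peaks but 14 LPS peaks and a ratio of 0.831 (0.765 to 0.902) over its length, and that over Hyal1 and Hyal3 a ratio of 0.530 (0.457 to 0.613).

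The mirrored rule, applied to the LPS list, selected 536 promoter peaks near 420 genes as gained, 4.46% (4.10% to 4.84%) of 12030 LPS coding promoter peaks with at least 15 LPS tags. Of the 420 genes with a gained peak 8 also had a lost one, Cyth1, Capzb, Atp8a1, Trim30b, Kdm2a, Taok3, Akap13 and Uckl1. Over all 9888 genes with a tested untreated peak the share with a lost peak was 10.1%. How many of the 420 had a tested untreated peak was not counted, so the overlap is not read as low or high. At Trim30b, chosen after its values were seen, the lost peak had 31 untreated and 6 LPS tags and a gained peak nearby had 9 untreated and 34 LPS tags. At Cyth1, an exchange factor for Arf proteins, the lost peak had 52 and 13 tags and the gained peak, more than 30 kb away, 6 and 20.

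Across chromosomes the share of promoter peaks lost ranged from 6.92% on chromosome 9 to 10.5% on chromosome 2. As a check of the labels, 39 of 41 LPS-induced genes had a level at least 2 times higher after LPS over the gene and 1 kb on either side, with ratios from 0.896 to 381. Of the macrophage markers 9 could be matched by name, 8 of them were more than 2 times above input in untreated cells, and 4 of the 9 were at least 2 times lower after LPS (range of ratios 0.232 to 3.44). Of 14 markers of other lineages 1 was more than 2 times above input, Cd79a, and the lowest was at 0.0989 of the input density. The part of cell composition in the lost peaks was not tested.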

How the data were processed

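Reads of 76 bases were cut back from the 3′ end by the authors, placed on mm9 by Bowtie where they matched at 1 site, and passed to MACS, which compared each Ser5 library on its own with input DNA. Tool versions are not given in the sources used here. The deposited tag positions have duplicates kept, and the deposited peak lists give a score for each peak, minus 10 times log10 of the MACS p-value, at least 50 in both lists. Tags on chromosomes 1 to 19 and X (7616771 untreated, 6249819 LPS, 7533308 input) were counted by their 5′ end and scaled to 1000000 tags per library (TPM). Aligned tags were 46, 31 and 36 bases long by a test of their uniqueness in the genome, which differs from the lengths that the methods give for the Ser5 libraries. TSSs are those of protein-coding transcripts in GENCODE M1, and each peak was assigned to its nearest TSS.

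With 1 library per condition no test was made. Intervals at 95% are Wilson intervals for shares, exact conditional intervals for ratios of counts and order-statistic intervals for medians. Those for ratios cover counting error only, and tags carry no molecular identifiers. Those for shares and medians treat peaks or genes as separate draws, although many lost peaks lie close together. None covers variation between replicates. A fold given for a single peak with 0 LPS tags used a floor of 3 tags per library. The rule and the counts of lost peaks by size of the difference set 0 tags to 0.5 instead.

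The lost peaks, the 23 gene lists and the 13 motifs were chosen with earlier results of these data known. Of the lists, 1 is not reported here, nor are some named genes. The genes named are the 10 lost peaks with the most untreated tags, the 10 with the lowest ratio among those with at least 30 untreated tags, up to 3 per list, the peaks at the limits of the rule, and the 5 lowest and 5 highest interior ratios among genes with at least 30 interior tags. Others were chosen after their values were seen. The functions were tested on simulated data. Alternatives were 1 tag per position and strand, scaling to tags outside peaks, tags moved 75 bp, tags whose first 30 bases are unique, a score of at least 100, 30 tags, 3-fold, other distances and TSS sets, and no LPS peak within 500 bp. Python 3.11.15, numpy 2.4.6, pandas 2.3.3, scipy 1.17.1, numba 0.67.0 and matplotlib 3.10.9 were used.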

Additional observations from a re-analysis of the deposited data

How the results depend on the processing

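For 7 results (the number and share of lost peaks, their ratio, GC content, interior ratio, LPS to input ratio and share near an LPS peak) 11 alternatives gave 77 values. The interior ratio and the LPS to input ratio stayed on the same side of 1, and the direction of the peak ratio is fixed by the rule. Of these values 41 stayed within the interval of the reported value (for the number of peaks, within 1.5 times). Of the 1157 lost peaks 893 were selected under each of the 4 alternatives on tags and scaling. The CpG ratio, motifs, gene lists, positions, runs and gained peaks were not recomputed under them. No paired analysis was possible because each condition had 1 library. Small peaks limit the result, since 682 lost peaks held 15 to 29 untreated tags.

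At least 30 untreated tags left 475 lost peaks, 4.30% of those tested, with a median ratio of 0.244, an interior ratio of 0.504, GC of 55.2% and an LPS peak within 1 kb in 37.5%. A score of at least 100 left 713, 5.96%, 0.248, 0.542, 55.5% and 38.1%, and an LPS to input ratio of 2.13. No LPS peak within 500 bp left 737, 5.55%, 0.244, 0.552, 56.0% and 16.6%. With 3-fold the share was 5.88%, the ratio 0.207, the interior ratio 0.538, the LPS to input ratio 1.58 and the share with a near LPS peak 41.5%. With a TSS within 500 bp the share was 6.72%, GC 56.0% and the share near 35.8%. With distance from the midpoint these were 8.02%, 54.9% and 43.5%. With TSSs of all transcripts the share was 11% and the share near 42.6%. With 1 tag per position the share was 7.79%. Scaling to tags outside peaks gave a share of 8.15%, an interior ratio of 0.619 and an LPS to input ratio of 3.75. The fewer tags or peaks that each stricter rule admits follow from its construction, and the cause of the other shifts was not tested.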
